A study of Mus musculus with 6 samples.

Results

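The machinery that copies DNA was followed as 44 genes in mouse oocytes and embryos labelled YAP-null or wild type. The genes were chosen by symbol and cover origin recognition and licensing, the replicative helicase, the 3 replicative polymerases, the sliding clamp and its loader, the single-strand binding protein and the enzymes that finish the lagging strand. All 44 were among the 23308 gene symbols of the deposited tables, each at 1 locus. YAP, encoded by Yap1, is the coactivator of transcription that the Hippo kinases hold in check, and by its title the study concerns YAP made in the oocyte and the start of transcription in the embryo. The groups were YAP-null 4-cell embryos (1 library), wild-type 4-cell embryos (1 library), YAP-null germinal vesicle (GV) oocytes (2 libraries) and wild-type GV oocytes (2 libraries). GV oocytes are fully grown oocytes held in meiotic prophase with an intact nucleus. Per the labels, YAP-null samples were YAP-/- with Yap1 deleted and came from YAP-/- females, and wild-type samples came from WT females. All groups shared the ICR strain background, females aged 21 to 23 days, injection of PMSG/hCG (gonadotropins that drive follicle growth and ovulation), mating where embryos were collected, and 60 pooled oocytes or embryos per library. How Yap1 was deleted, in which cells, and the fathers' genotype are not given here. The source field of the labels gives GV oocytes for the 4-cell samples as well, whereas titles and stage fields give 4-cell embryos, and the titles were used.

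Replication starts when the origin recognition complex (ORC) marks origins and, with CDC6 and CDT1, loads the MCM2-7 helicase, a step that geminin blocks by binding CDT1. CDC45 and GINS then turn MCM2-7 into the active helicase, RPA coats the single strands, polymerase alpha-primase lays primers, and polymerases epsilon and delta extend them on the PCNA clamp that RFC loads. A GV oocyte has long finished its premeiotic S phase and stores transcripts and proteins for later use, whereas a cleavage embryo copies its genome in every cell cycle.

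The deleted gene and the stage markers were read first. Yap1 was at 33.3 FPKM in YAP-null embryos and 89.7 FPKM in wild-type embryos, and at 10.8 and 10.04 FPKM in YAP-null oocytes and 248 and 154 FPKM in wild-type oocytes. The YAP-null embryos thus held Yap1 transcript, below the wild-type embryos but above the YAP-null oocytes. For embryos the name YAP-null follows the labels and does not mean that YAP was absent. FPKM counts sequenced fragments relative to transcript length and to the library's total, so levels of different genes can be compared per length. The summed level of 12 oocyte markers was 1049 FPKM in YAP-null embryos and 181.8 FPKM in wild-type embryos, and 6758 to 9954 FPKM in the GV libraries. By limma 10 of the 12 were lower at the 4-cell stage, and the other two, Nlrp5 and Ddx4, overlapped between stages. The GV libraries numbered 1 and 2 stood apart in these markers: Nlrp5 was at 72.3 FPKM in YAP-null embryos and 14.5 FPKM in wild-type embryos, against 17.9 and 728 FPKM in YAP-null oocytes and 13.6 and 781 FPKM in wild-type oocytes. Of 7 testable markers of cleavage embryos, 6 were higher at the 4-cell stage by limma. The summed level of 14 granulosa and cumulus cell markers was 29.5 to 36.3 FPKM in GV oocytes. Highest there were Cyp19a1 at 9.51 to 13.6 FPKM, Inha at 6.12 to 15.6 FPKM and Amh at 3.05 to 4.46 FPKM. By limma these 3 of 5 testable markers were lower at the 4-cell stage and 1, Amhr2, was higher. Ptx3 and Tnfaip6 were listed at 0 in all 6 libraries. Read totals are unknown. Relative depth, judged from the width of the deposited bounds and taking wild-type GV library 1 as 1, was 0.808 in the YAP-null and 0.975 in the wild-type 4-cell library and 0.368 to 0.447 in the other 3 GV libraries. In bulk libraries fewer cells of a type and less RNA per cell cannot be told apart.

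Promoters of the replication genes were read from RefSeq (GRCm38.p6, 250 bases before to 50 after the start site), because S phase genes in somatic cells are known targets of E2F transcription factors. Of the 44 genes, 36 matched the promoter table and 15 of these 36 (41.7%) held at least 1 of 4 E2F consensus words, TTTCCCGC, TTTGGCGC, TTTCGCGC or TTTGCCGC, on either strand. The 36 genes had 45 promoters, and a gene was counted when any of its promoters held a word. Lig1 and Mcm7 also had promoters without a word. Some words overlap, as in Mcm5 and Mcm6. Among all 27025 symbols with a promoter, 704 (2.61%) held such a word. The box CCAAT (or ATTGG), which is common in promoters at large, was in 58.3% of the 36 and in 41.1% of all symbols. The windows shown carry the words in capitals, in the direction of transcription, and belong to genes whose 4-cell values are described below. A match describes the letters only.
Orc3 (chr4:34614960-34614999, minus strand): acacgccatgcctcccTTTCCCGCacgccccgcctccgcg
Cdc6 (chr11:98907997-98908036, plus strand): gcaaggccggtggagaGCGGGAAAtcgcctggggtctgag
Cdt1 (chr8:122568031-122568064, plus strand): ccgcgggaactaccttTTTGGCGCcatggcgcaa
Mcm5 (chr8:75109340-75109383, plus strand): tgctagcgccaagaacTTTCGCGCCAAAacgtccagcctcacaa
Mcm6 (chr1:128359792-128359831, minus strand): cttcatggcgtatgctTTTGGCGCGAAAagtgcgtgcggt
Pold1 (chr7:44548766-44548792, minus strand): ggcggcgtatcttgtgGCGGGAAAagc
Lig1 (chr7:13278836-13278875, plus strand): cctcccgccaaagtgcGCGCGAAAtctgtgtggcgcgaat
Pole2 (chr12:69228157-69228196, minus strand): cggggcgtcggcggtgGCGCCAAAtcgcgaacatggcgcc
For contrast, the whole promoter window of Rfc3 holds 2 words in capitals, and that of Orc5 holds none. These 2 genes also had large and opposite 4-cell genotype differences, given below, and do not stand for their classes.
Rfc3 (chr5:151651159-151651458, minus strand): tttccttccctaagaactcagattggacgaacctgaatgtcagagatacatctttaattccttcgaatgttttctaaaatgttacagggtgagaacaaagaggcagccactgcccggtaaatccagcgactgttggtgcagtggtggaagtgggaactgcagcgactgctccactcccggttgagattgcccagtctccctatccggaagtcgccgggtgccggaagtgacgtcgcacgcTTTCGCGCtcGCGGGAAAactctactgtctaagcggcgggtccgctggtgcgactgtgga
Orc5 (chr5:22550289-22550588, minus strand): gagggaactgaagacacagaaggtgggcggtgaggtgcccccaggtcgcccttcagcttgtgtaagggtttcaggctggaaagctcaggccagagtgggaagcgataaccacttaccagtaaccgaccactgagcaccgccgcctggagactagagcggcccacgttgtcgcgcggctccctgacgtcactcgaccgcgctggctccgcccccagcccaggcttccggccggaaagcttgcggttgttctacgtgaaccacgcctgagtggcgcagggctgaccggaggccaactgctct

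The replication genes were expressed in every group. Of the 44, 43 were at 1 FPKM or more in all 6 libraries and 36 were at 5 FPKM or more. Pold4, the smallest subunit of polymerase delta, was the exception and was listed at 0 in the YAP-null 4-cell library. The median of the 44 levels was 22.9 FPKM in YAP-null embryos and 29.6 FPKM in wild-type embryos, and 52.3 and 30.4 FPKM in YAP-null oocytes and 45.3 and 31.5 FPKM in wild-type oocytes. Subunits of 1 complex differed widely in level. In GV oocytes the ORC transcripts Orc2 to Orc6 spanned 25.2-fold and 23.0-fold in YAP-null and 32.3-fold and 21.8-fold in wild-type libraries. Orc5 was highest and Orc3 lowest in each. Orc1, at 24.6 to 54.4 FPKM in the 6 libraries, is not among the 44 and belongs to the further list below. Among the 44 genes with a value inside its own deposited bounds, the median half-width was 9.40% to 14.6% of the level across libraries. Outside their bounds or at 0 were 7 genes in the YAP-null 4-cell library. There were 8 such genes in the wild-type 4-cell library and 8 in wild-type GV library 1. In 1 or both 4-cell libraries Gmnn, Cdt1, Mcm6, Gins4, Pole3, Pole4, Pcna, Rpa2 and Rpa3 lay above their bounds. The bounds cover the error of 1 library, not the spread between animals.

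**Figure D1:**
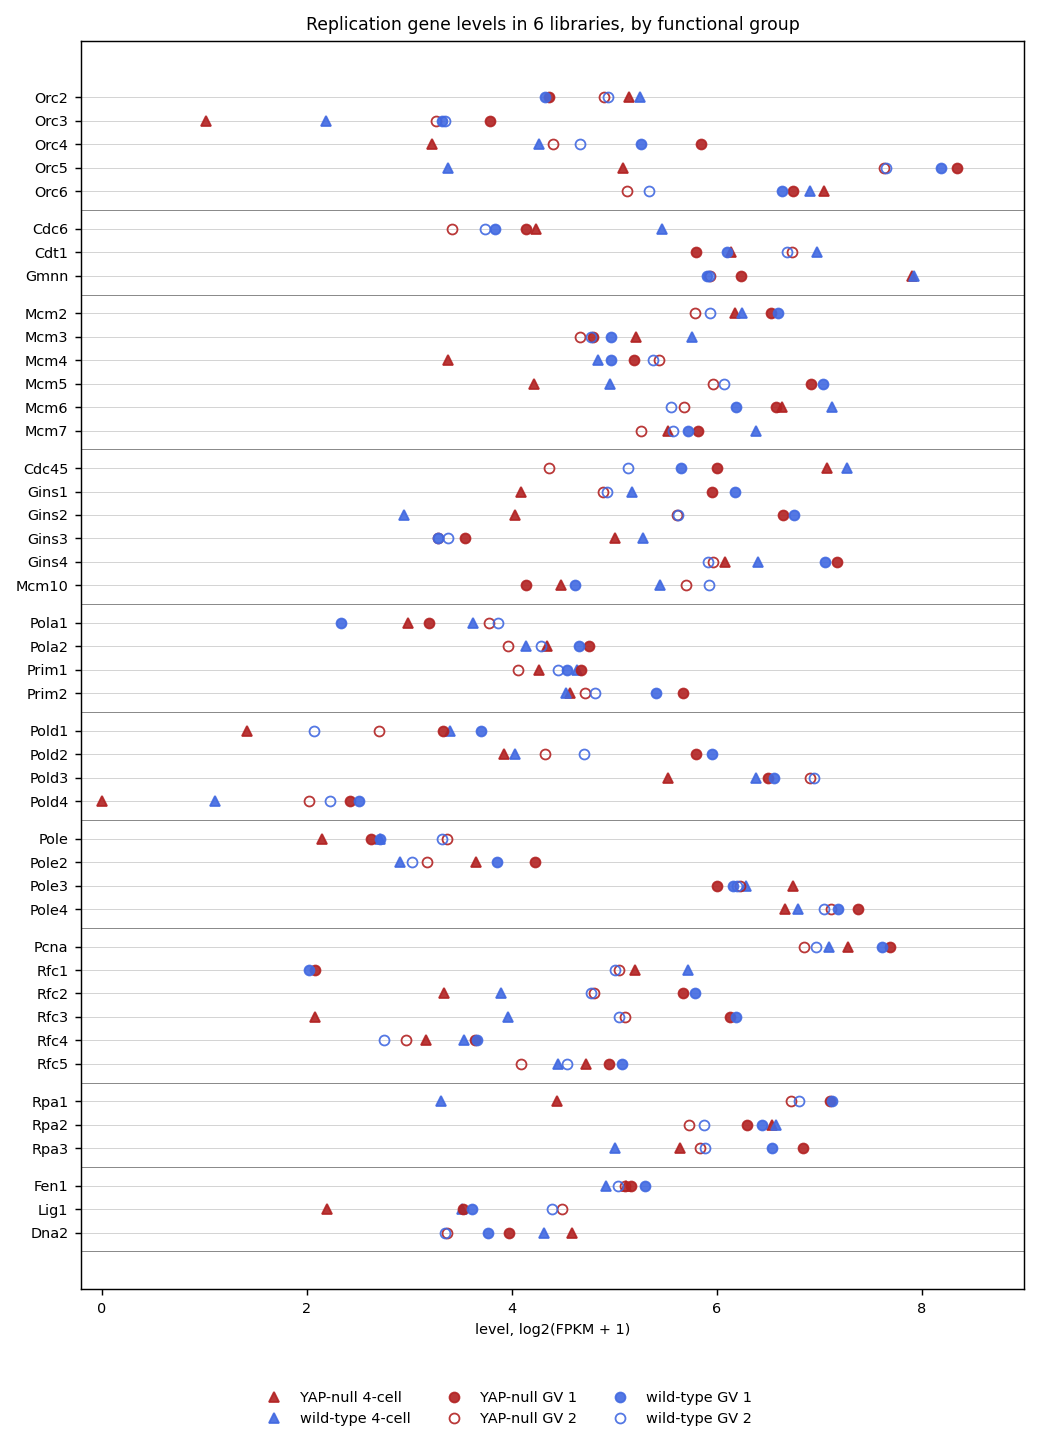
Level of each of the 44 replication genes on the log2(FPKM + 1) scale in the 6 libraries, grouped by function from ORC at the top to lagging strand maturation at the bottom; triangles are 4-cell libraries, circles GV libraries, filled circles number 1 and open circles number 2. Open circles lie to the left of filled ones for most genes, and the triangles of Orc5, Rpa1 and Gins2 lie far left of the circles.

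Between the stages, the genes for geminin (Gmnn) and the helicase activators CDC45 and GINS3 were higher in 4-cell embryos than in GV oocytes. Orc5, Rpa1, Gins2, Rfc3, Mcm5, Orc3, Pold4 and Rfc2, which encode subunits of complexes from origin binding to the clamp loader, were lower. By limma on all 6 libraries with genotype as a term, 11 of 44 replication genes (25.0%) passed an adjusted p of 0.05, whereas 6408 of 11451 genes tested (56.0%) did. Higher at the 4-cell stage were 3 of the 44, against 28.2% of all genes, and lower were 8 of the 44, against 27.8% of all genes. The median difference, 4-cell minus GV, was -0.15 on the log2(FPKM + 1) scale for the 44 and -0.10 for all genes. Without 1 library it ran from -0.33 to -0.07 for the 44 and from -0.23 to 0.00 for all genes. The median absolute difference was 0.81 for the 44 and 1.40 for all genes, and the median standard errors were 0.42 and 0.39. Both 4-cell libraries lay above all 4 GV libraries for 12 of the 44 (35.1% of all genes) and below them for 16 (35.2% of all genes). Within YAP-null libraries 5 of the 44 stood at least 2-fold higher at the 4-cell stage (31.0% of genes) and 15 stood at least 2-fold lower (29.4% of genes). Within wild-type libraries 6 stood at least 2-fold higher (33.1% of genes) and 10 stood at least 2-fold lower (35.3% of genes). Fewer of the 44 passed without a 4-cell library, which leaves 1 library at that stage. Over all genes fewer passed as well with any 1 library left out. The differences of the 11 genes that passed kept their sign with any 1 library left out. With the GV libraries of 1 number alone more of the 44 passed. Those fits have 1 library per group, were added after the values were seen and are not set against a share of all genes.

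**Figure D2:**
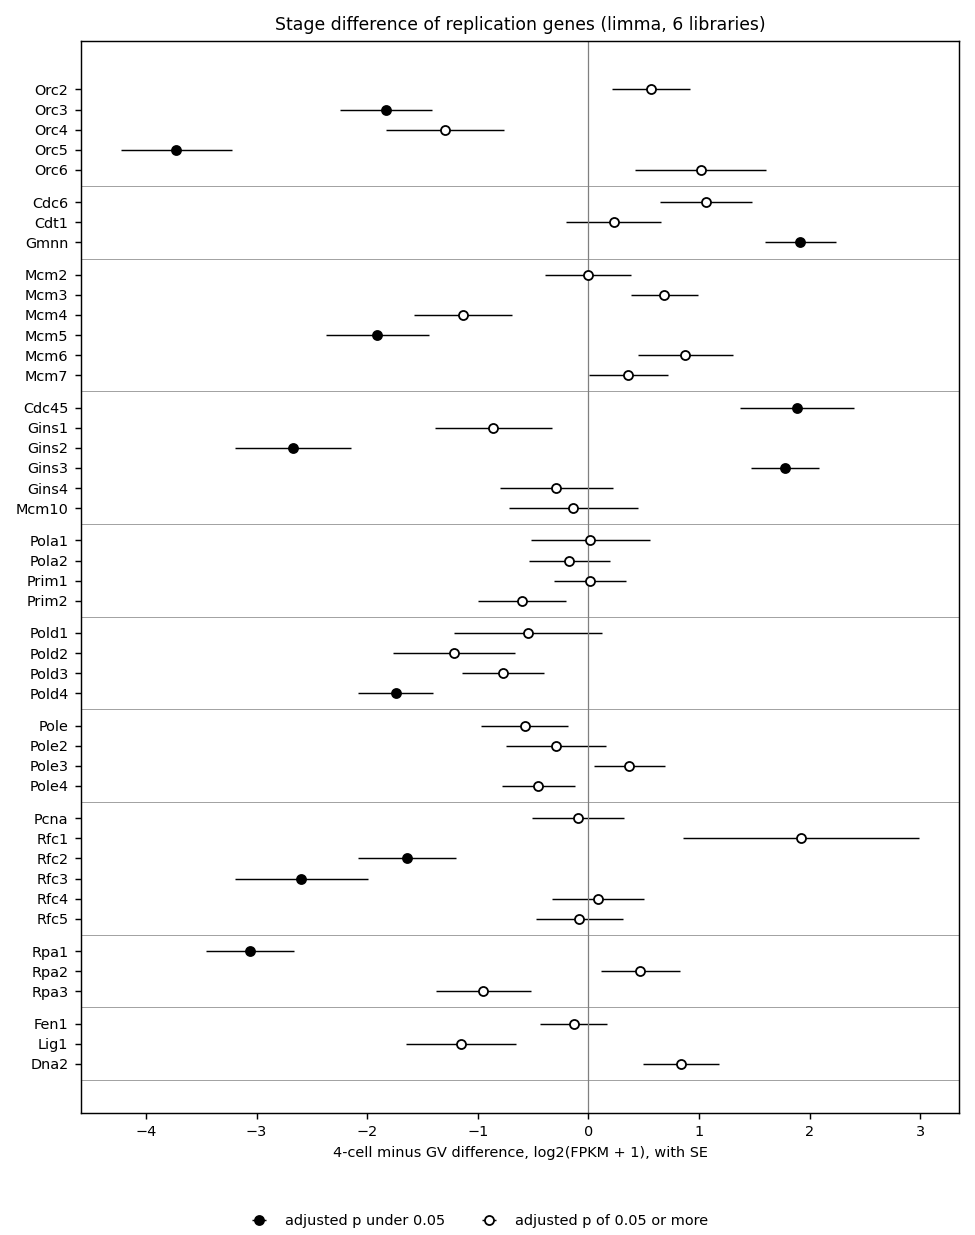
Stage difference of each replication gene, 4-cell minus GV, on the log2(FPKM + 1) scale, with its standard error from limma on 6 libraries; filled circles passed an adjusted p of 0.05 over all genes and open circles did not. Gmnn, Gins3 and Cdc45 are the filled circles right of 0, and 8 lie left of it, with Orc5 at -3.72 and Rpa1 at -3.06 farthest.

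Among the ORC subunits Orc2 to Orc6, Orc5 and Orc3 were lower in 4-cell embryos. Orc5, which encodes a subunit with an ATPase fold (chr5:21992307-22056149 in mm9), was at 32.9 FPKM in YAP-null embryos and 9.39 FPKM in wild-type embryos, against 324 and 197 FPKM in YAP-null oocytes and 289.9 and 200.3 FPKM in wild-type oocytes. All 4 GV libraries lay above both 4-cell libraries, and the difference was -3.72 ± 0.50 (SE; limma, adjusted p = 0.00145). Orc3 was at 1.03 FPKM in YAP-null embryos and 3.54 FPKM in wild-type embryos, against 12.8 and 8.57 FPKM in YAP-null oocytes and 8.99 and 9.20 FPKM in wild-type oocytes, a difference of -1.83 ± 0.42 (limma, adjusted p = 0.0110; 0.116 without the YAP-null 4-cell library). Orc4, a further ATPase-fold subunit, was at 8.33 FPKM in YAP-null embryos and 18.2 FPKM in wild-type embryos, against 56.4 and 20.1 FPKM in YAP-null oocytes and 37.4 and 24.4 FPKM in wild-type oocytes. Its GV levels all exceeded its 4-cell levels, but the difference of -1.30 ± 0.53 did not pass (limma, adjusted p = 0.0788). Orc2 and Orc6 had higher means at the 4-cell stage, with limma adjusted p of 0.210 and 0.186. The ratio of Orc5 to Orc2 was 0.959 in the YAP-null and 0.253 in the wild-type 4-cell library, and 16.6 and 6.85 in YAP-null and 15.2 and 6.75 in wild-type GV oocytes. Of the 44 genes, 7 share part of their locus with another gene that is not a small RNA: Orc3 with Akirin2, Orc4 with Acvr2a, Orc5 with Gm15421, Gins2 with Gse1, Pold2 with Aebp1, Rfc4 with Eif4a2 and Lig1 with 6330408A02Rik. No source used here says whether counting used strand, so reads in the overlaps cannot be told apart. Gm15421 was at 0 in the 4 GV libraries and Acvr2a at 1.47 to 5.49 FPKM throughout, whereas Akirin2 was far above Orc3 at 76.8 to 347 FPKM. Aebp1 was at 0 to 1.19 FPKM, and Eif4a2 was above Rfc4 at 48.6 to 63.3 FPKM. 6330408A02Rik was below Lig1, at 0.852 FPKM in YAP-null embryos and 1.82 FPKM in wild-type embryos.

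Of the licensing factors, the inhibitor rose. Gmnn, which encodes geminin (chr13:24843714-24853806 in mm9), was at 238 FPKM in YAP-null embryos and 242 FPKM in wild-type embryos, against 74.3 and 60.1 FPKM in YAP-null oocytes and 58.8 and 59.8 FPKM in wild-type oocytes. The 4-cell libraries stood 3.80-fold above the GV libraries in mean FPKM, and the difference was 1.91 ± 0.32 (limma, adjusted p = 0.00328). Cdc6, a loader of the helicase, was at 17.8 FPKM in YAP-null embryos and 43.0 FPKM in wild-type embryos, against 16.6 and 9.65 FPKM in YAP-null oocytes and 13.3 and 12.4 FPKM in wild-type oocytes. Both 4-cell libraries exceeded all GV libraries, yet Cdc6 lay just outside the threshold with a difference of 1.07 ± 0.42 (limma, adjusted p = 0.0683). Cdt1, the partner that geminin binds, was at 69.5 FPKM in YAP-null embryos and 125 FPKM in wild-type embryos, against 54.7 and 105 FPKM in YAP-null oocytes and 67.4 and 102 FPKM in wild-type oocytes. Its stages overlapped. The FPKM ratio of Gmnn to Cdt1 was 3.43 in the YAP-null and 1.94 in the wild-type 4-cell library, and 1.36 and 0.571 in YAP-null and 0.873 and 0.585 in wild-type GV oocytes. The ratio was thus higher in both embryo libraries than in any oocyte library.

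The 6 subunits of MCM2-7, which work as 1 ring, did not move together between stages. Mcm5 was at 17.6 FPKM in YAP-null embryos and 30.1 FPKM in wild-type embryos, against 120.0 and 61.2 FPKM in YAP-null oocytes and 130.2 and 66.0 FPKM in wild-type oocytes. It was lower at the 4-cell stage by -1.91 ± 0.46 as a signed difference (limma, adjusted p = 0.0136; 0.150 without the YAP-null and 0.0944 without the wild-type 4-cell library). Mcm6, the subunit of highest mean level, was at 98.1 FPKM in YAP-null embryos and 138 FPKM in wild-type embryos, against 94.4 and 50.3 FPKM in YAP-null oocytes and 72.0 and 45.9 FPKM in wild-type oocytes. Both embryo libraries were above all oocyte libraries, with a difference of 0.88 ± 0.43 that did not pass (limma, adjusted p = 0.126). Mcm4 was at 9.39 FPKM in YAP-null embryos and 27.7 FPKM in wild-type embryos, against 35.5 and 42.4 FPKM in YAP-null oocytes and 30.2 and 40.5 FPKM in wild-type oocytes, with a difference of -1.13 ± 0.45 that did not pass either (limma, adjusted p = 0.0701). Mcm2, Mcm3 and Mcm7 had limma adjusted p from 0.0962 to 0.998. The order of the subunits changed: Mcm5 was the highest in all 4 GV libraries and Mcm6 in both 4-cell libraries, while the lowest was Mcm3 in GV oocytes and Mcm4 in embryos. The span from highest to lowest was 10.5-fold in the YAP-null and 4.99-fold in the wild-type 4-cell library, and 4.49-fold and 2.50-fold in YAP-null and 4.31-fold and 2.51-fold in wild-type GV oocytes.

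**Figure D3:**
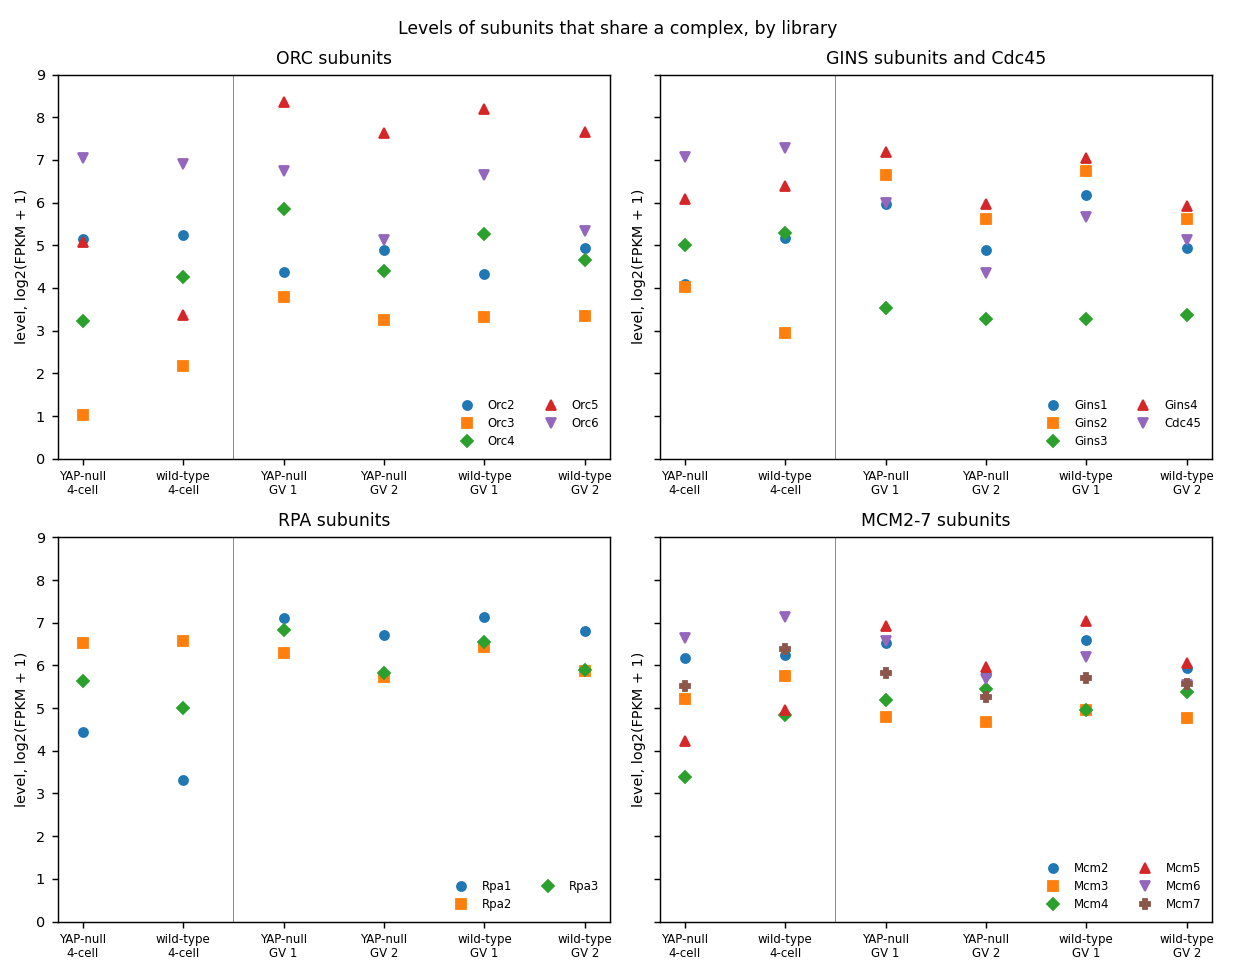
Levels of the subunits of ORC (Orc2 to Orc6), GINS with Cdc45, RPA and MCM2-7 on the log2(FPKM + 1) scale, with 1 column per library and 4-cell libraries left of the line. Orc5, Gins2 and Rpa1 are the lowest or near lowest of their complexes in the wild-type 4-cell library and among the highest in GV oocytes, and Gins3 and Cdc45 are higher in embryos.

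The activators of the helicase held the other genes that rose. Cdc45 (chr16:18780540-18812065 in mm9), which joins GINS on the ring, was at 134 FPKM in YAP-null embryos and 154 FPKM in wild-type embryos, against 62.9 and 19.6 FPKM in YAP-null oocytes and 49.3 and 34.0 FPKM in wild-type oocytes. All embryo values exceeded all oocyte values, with a difference of 1.89 ± 0.51 (limma, adjusted p = 0.0206). Without the YAP-null or the wild-type 4-cell library its adjusted p was 0.160 or 0.181. Gins3 (chr8:98157459-98168959 in mm9) was at 31.2 FPKM in YAP-null embryos and 37.9 FPKM in wild-type embryos, against 10.6 and 8.68 FPKM in YAP-null oocytes and 8.70 and 9.40 FPKM in wild-type oocytes, a difference of 1.78 ± 0.31 (limma, adjusted p = 0.00369; 0.0515 without the wild-type 4-cell library). Its partner Gins2 moved the other way and was at 15.3 FPKM in YAP-null embryos and 6.74 FPKM in wild-type embryos, against 99.1 and 47.8 FPKM in YAP-null oocytes and 107 and 48.4 FPKM in wild-type oocytes, a difference of -2.67 ± 0.52 (limma, adjusted p = 0.00601; 0.125 without the wild-type 4-cell library). The ratio of Gins3 to Gins2 was 2.03 in the YAP-null and 5.62 in the wild-type 4-cell library, and 0.107 and 0.182 in YAP-null and 0.0815 and 0.194 in wild-type GV oocytes. Gins3 was thus the scarcer of the 2 transcripts in every oocyte library and the more abundant in both embryo libraries. The remaining GINS subunits and Mcm10, which helps the helicase to start, overlapped between stages. Gins4 was at 66.4 FPKM in YAP-null embryos and 83.4 FPKM in wild-type embryos, against 144 and 61.3 FPKM in YAP-null oocytes and 132 and 59.2 FPKM in wild-type oocytes. Gins1 was at 16.0 FPKM in YAP-null embryos and 35.0 FPKM in wild-type embryos, against 61.1 and 28.6 FPKM in YAP-null oocytes and 71.5 and 29.4 FPKM in wild-type oocytes. Gins2 shares part of its locus with Gse1, which was at 8.50 FPKM in YAP-null embryos and 5.76 FPKM in wild-type embryos, against 23.7 and 54.1 FPKM in YAP-null oocytes and 22.2 and 55.8 FPKM in wild-type oocytes. Like Gins2, Gse1 was lower in both embryo libraries than in all oocyte libraries and higher in YAP-null than in wild-type embryos, while among GV libraries it was higher in those numbered 2, where Gins2 was lower. The part of shared reads was not tested. Cdc45 and Gins3, like Rfc2 and Rfc1 below, were named after their values were seen.

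Of the 12 polymerase and primase genes 1 passed, in polymerase delta. No subunit of polymerase alpha-primase passed, and Prim2, its regulatory primase subunit, was at 22.8 FPKM in YAP-null embryos and 22.0 FPKM in wild-type embryos, against 49.8 and 25.2 FPKM in YAP-null oocytes and 41.3 and 27.1 FPKM in wild-type oocytes, with a difference of -0.60 ± 0.40 (limma, adjusted p = 0.238). In polymerase delta all 4 differences were below 0, as were those of 5951 of the 11451 genes tested. Pold4 was at 0 FPKM in YAP-null embryos and 1.15 FPKM in wild-type embryos, against 4.36 and 3.07 FPKM in YAP-null oocytes and 4.68 and 3.66 FPKM in wild-type oocytes, with a difference of -1.74 ± 0.34 (limma, adjusted p = 0.00600; 0.0684 without the YAP-null 4-cell library). Pold4 is a low gene, and the added 1 FPKM of the log scale understates its change. Pold3, the accessory subunit of highest level, was at 44.9 FPKM in YAP-null embryos and 82.7 FPKM in wild-type embryos, against 89.2 and 119 FPKM in YAP-null oocytes and 93.4 and 123 FPKM in wild-type oocytes. Its GV values all exceeded those of the embryos, with a difference of -0.77 ± 0.37 that did not pass (limma, adjusted p = 0.120). The catalytic subunit Pold1 was at 1.66 FPKM in YAP-null embryos and 9.54 FPKM in wild-type embryos, against 9.04 and 5.52 FPKM in YAP-null oocytes and 12.0 and 3.20 FPKM in wild-type oocytes, and its stages overlapped. In polymerase epsilon no subunit passed: the catalytic Pole was at 3.44 FPKM in YAP-null embryos and 5.56 FPKM in wild-type embryos, against 5.17 and 9.34 FPKM in YAP-null oocytes and 5.57 and 8.98 FPKM in wild-type oocytes, and the histone-fold subunit Pole4 at 100.4 FPKM in YAP-null embryos and 110.1 FPKM in wild-type embryos, against 166 and 137 FPKM in YAP-null oocytes and 145 and 131 FPKM in wild-type oocytes. Pole3, the partner of Pole4, had a difference of 0.37 ± 0.32 and Pole2 one of -0.29 ± 0.45.

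The clamp did not pass the test, and 2 subunits of its loader were lower in embryos. Pcna, the sliding clamp, was at 155 FPKM in YAP-null embryos and 136 FPKM in wild-type embryos, against 206 and 114 FPKM in YAP-null oocytes and 195 and 124 FPKM in wild-type oocytes, and its difference of -0.09 ± 0.42 did not pass (limma, adjusted p = 0.866). Rfc3, a small subunit of the clamp loader, was at 3.24 FPKM in YAP-null embryos and 14.6 FPKM in wild-type embryos, against 68.7 and 33.4 FPKM in YAP-null oocytes and 72.0 and 32.1 FPKM in wild-type oocytes. Oocyte libraries were all above embryo libraries, with a difference of -2.59 ± 0.60 (limma, adjusted p = 0.0114; 0.167 without the YAP-null 4-cell library). Rfc2, a further small subunit, was at 9.14 FPKM in YAP-null embryos and 13.9 FPKM in wild-type embryos, against 50.0 and 26.9 FPKM in YAP-null oocytes and 54.2 and 26.4 FPKM in wild-type oocytes. It passed with -1.64 ± 0.45 (limma, adjusted p = 0.0207), but not without a 4-cell library (0.186 without the YAP-null, 0.123 without the wild-type) or without wild-type GV library 1 (0.0509). Rfc1, the large subunit, was at 35.9 FPKM in YAP-null embryos and 51.5 FPKM in wild-type embryos, against 3.24 and 31.9 FPKM in YAP-null oocytes and 3.05 and 31.2 FPKM in wild-type oocytes. Its 2 oocyte libraries numbered 1 stood far below all others, and its difference of 1.92 ± 1.07 did not pass (limma, adjusted p = 0.169). Rfc4 and Rfc5 had differences of 0.09 and -0.08.

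In the single-strand binding protein RPA, the largest subunit fell and the others did not pass. Rpa1 (chr11:75113761-75161885 in mm9), the main DNA-binding subunit, was at 20.8 FPKM in YAP-null embryos and 8.93 FPKM in wild-type embryos, against 137 and 105 FPKM in YAP-null oocytes and 139 and 111 FPKM in wild-type oocytes. Its difference of -3.06 ± 0.40 had the smallest adjusted p of the 44 genes (limma, adjusted p = 0.00133). Rpa2 was at 91.7 FPKM in YAP-null embryos and 94.3 FPKM in wild-type embryos, against 77.2 and 52.2 FPKM in YAP-null oocytes and 85.9 and 57.8 FPKM in wild-type oocytes, and Rpa3 had a difference of -0.95 ± 0.43 (limma, adjusted p = 0.101). The ratio of Rpa1 to Rpa2 was 0.226 in the YAP-null and 0.0947 in the wild-type 4-cell library, and 1.77 and 2.01 in YAP-null and 1.61 and 1.91 in wild-type GV oocytes. Of the genes for lagging strand maturation none passed. Fen1, the flap nuclease, was at 33.7 FPKM in YAP-null embryos and 29.2 FPKM in wild-type embryos, against 34.9 and 33.4 FPKM in YAP-null oocytes and 38.5 and 31.7 FPKM in wild-type oocytes. Lig1, the ligase that seals the nicks, was at 3.57 FPKM in YAP-null embryos and 10.4 FPKM in wild-type embryos, against 10.5 and 21.4 FPKM in YAP-null oocytes and 11.2 and 20.0 FPKM in wild-type oocytes, with a difference of -1.15 ± 0.50 (limma, adjusted p = 0.0902). Dna2, a nuclease and helicase that trims long flaps, had a difference of 0.84 ± 0.34 (limma, adjusted p = 0.0784). Gmnn, Orc5 and Rpa1 passed the adjusted p of 0.05 with any 1 of the 6 libraries left out.

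In GV oocytes no replication gene passed between genotypes, and the largest differences were those of Pola1 at 0.39 and Mcm10 at -0.35. By limma, 0 of 44 passed an adjusted p of 0.05, as did 0 of 10462 genes (0.0%). At an unadjusted p of 0.05 the test gave 0 replication genes and 22 genes in all. Yap1 itself, with a difference of -4.10, did not pass (limma, unadjusted p = 0.00017, adjusted p = 0.999998), so a count of 0 says little about smaller differences. The median difference, YAP-null minus wild type, was -0.02 for the 44, with a range of -0.35 to 0.39, and -0.00 for all genes. Without 1 library the median of the 44 ran from -0.28 to 0.30, and with libraries rescaled to the same FPKM sum it was -0.17. The median standard error of a difference was 0.47. With 2 libraries on each side the smallest p of an exact permutation test is 0.333. Within libraries numbered 1, and likewise within libraries numbered 2, 0 of the 44 were 2-fold apart between genotypes, where 1.62% and 1.54% of genes were. Gmnn was the only replication gene whose genotypes did not overlap in the higher direction, with 74.3 and 60.1 FPKM in YAP-null oocytes and 58.8 and 59.8 FPKM in wild-type oocytes, and 5.1% of genes tested had such a pattern. None of the 44 lay wholly below the wild type, where 5.68% of genes did.

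Within GV oocytes the levels differed with the number of the library. The libraries numbered 2 were below both libraries numbered 1 for 31 of the 44 and above them for 10, whereas among the 10462 genes tested 3598 were below and 4496 above. The median difference, number 2 minus number 1, was -0.62 in YAP-null and -0.40 in wild-type oocytes, against 0.07 and 0.10 for all genes. At least 2-fold apart were 12 of the 44 in YAP-null (26.9% of all genes) and 11 in wild-type oocytes (23.3% of all genes). Rfc1 stood out as 9.87-fold higher in number 2 among YAP-null and 10.2-fold among wild-type oocytes. Mcm10 went the same way, at 16.6 and 51.0 FPKM in YAP-null oocytes and 23.6 and 59.6 FPKM in wild-type oocytes. Orc6, the smallest ORC subunit, went the other way, at 106 and 33.8 FPKM in YAP-null oocytes and 98.7 and 39.4 FPKM in wild-type oocytes. Oocyte markers moved with the number as well: of 12, 6 were at least 2-fold higher and 3 lower in number 2 in YAP-null oocytes, and 5 higher and 2 lower in wild-type oocytes, with medians of 1.01 and 0.62. Of 10431 genes in YAP-null oocytes 1880 were higher and 927 lower by as much. Of 10469 genes in wild-type oocytes 1722 were higher and 716 lower. The part of the oocyte markers in the differences of replication genes was not tested. The labels give the numbers no meaning, and the numbers were in balance with genotype.

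**Figure D4:**
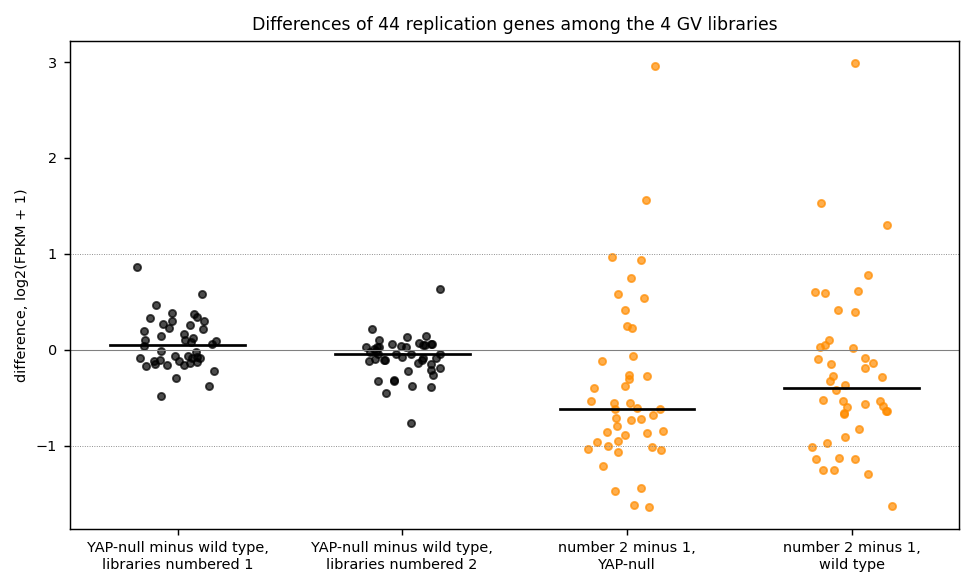
Differences of the 44 replication genes among the 4 GV libraries on the log2(FPKM + 1) scale; each point is a gene, the bar is the median, and dotted lines mark 2-fold. Points of the genotype differences lie within 2-fold around medians of 0.05 (number 1) and -0.05 (number 2), whereas those of number 2 minus number 1 have medians of -0.62 and -0.40 and Rfc1 lies near 3 in both genotypes.

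At the 4-cell stage there was 1 library per genotype, so differences have no replicate check and no test was made. In the YAP-null library Pold1, Rfc3, Mcm4, Lig1, Cdc6, Orc3, Gins1 and Orc4 were at least 2-fold lower, and Orc5, Rpa1 and Gins2 at least 2-fold higher. Of the 43 genes that averaged 1 FPKM or more over the 2 libraries, 8 were at least 2-fold lower in YAP-null embryos, where 9.97% of all genes were, and 3 at least 2-fold higher, where 17.7% of all genes were. The median difference, YAP-null minus wild type, was -0.32 for the 43 genes and 0.05 for all genes. Below 0 were 30 of the 43 and 5187 of all 10854 genes. With libraries rescaled to the same FPKM sum these medians were -0.13 and 0.23, and 24 of the 43 were below 0. The share of all genes below 0 at that scaling is not given here. Pold4, at 0 FPKM in YAP-null embryos and 1.15 FPKM in wild-type embryos, had too low a mean to enter. For scale, the standard deviation of a single GV library within a genotype was 0.45 in the median replication gene. It comes from oocytes, and a difference between 2 independent libraries spreads more widely than a single library.

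The genes lower in YAP-null embryos came from licensing, the helicase, polymerase delta, the clamp loader and the ligase. Pold1, the catalytic subunit of polymerase delta, was at 1.66 FPKM in YAP-null embryos and 9.54 FPKM in wild-type embryos, a difference of -1.98. Rfc3 was at 3.24 FPKM in YAP-null embryos and 14.6 FPKM in wild-type embryos, a difference of -1.88. Mcm4 was at 9.39 FPKM in YAP-null embryos and 27.7 FPKM in wild-type embryos, a difference of -1.47. These 3 had the largest differences in that direction, and the next were genes of the ligase, origin recognition, licensing and GINS. Lig1 differed by -1.32, Cdc6 by -1.23, Orc3 by -1.16, Gins1 by -1.08 and Orc4 by -1.04, with the values given above. Orc4 lay just inside the 2-fold limit and Mcm10, at 21.3 FPKM in YAP-null embryos and 42.5 FPKM in wild-type embryos with a difference of -0.96, just outside. All 6 MCM2-7 subunits were below 0, with a median of -0.64, where 5187 of all 10854 genes were below 0. Mcm2 at -0.07, however, turned to 0.13 when libraries were rescaled to the same FPKM sum. In the licensing pair, Gmnn differed by -0.02 and turned positive with that rescaling and with quantile normalization, while Cdt1 differed by -0.84. Pcna, Fen1 and Rpa2 differed by 0.19, 0.20 and -0.04.

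The 3 genes at least 2-fold higher in YAP-null embryos were all genes that were lower in embryos than in oocytes. Orc5 was 3.50-fold higher in YAP-null than in wild-type embryos in FPKM, and its embryo level was 12.6% of the GV mean in YAP-null and 3.83% in wild-type samples. Rpa1 was 2.32-fold higher, at 17.2% of the GV mean in YAP-null and 7.17% in wild-type samples. Gins2 was 2.27-fold higher, at 20.9% and 8.69% of the GV mean in YAP-null and in wild-type samples. Other genes that were lower in embryos went the opposite way between genotypes. Rfc3 was at 6.34% of its GV mean in YAP-null and 28.1% in wild-type samples, and Orc3 at 9.59% and 39.0%. Oocyte markers were also higher in the YAP-null 4-cell library, 11 of 12 by at least 2-fold and with a sum of 1049 against 181.8 FPKM, and none of the 12 was at 0 in either embryo library. Of 8 cleavage embryo markers compared, Gata6, Tdgf1 and Hand1 were at least 2-fold lower in the YAP-null library and 0 were higher by as much. Gata6 was at 5.03 FPKM in YAP-null embryos and 52.1 FPKM in wild-type embryos. Granulosa and cumulus markers summed to 64.6 FPKM in YAP-null embryos and 76.4 FPKM in wild-type embryos, almost all of it Amhr2 at 62.0 and 74.7 FPKM. The part of oocyte transcripts in the differences of replication genes was not tested. With a pseudocount of 5 FPKM 4 genes were lower by 2-fold or more and 1 higher, and with quantile normalization 1 was higher. A larger pseudocount shrinks the differences of all genes, and the shares of all genes at these settings are not given here.

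The genes with an E2F word in their promoter were mostly lower in the YAP-null 4-cell library, a pattern that was noticed after the values were seen and is given as a description without a test. The 15 genes with an E2F word had a median difference, YAP-null minus wild type, of -0.84. In YAP-null embryos 5 of the 15 (Pold1, Rfc3, Lig1, Cdc6 and Orc3) were lower by 2-fold or more and 0 higher by as much. Of all genes 9.97% were lower and 17.7% higher by as much, and of the 374 other genes with a word 9.09% and 10.7%. Of these 15, 14 were below 0. Pole2 was the exception, at 11.6 FPKM in YAP-null embryos and 6.52 FPKM in wild-type embryos, a difference of 0.74, although its promoter holds the word GCGCCAAA. The 20 genes without a word had a median of 0.05, and 10 of the 20 were below 0. Of the 20, Orc4 was lower by 2-fold or more (5%), and Orc5 and Rpa1 were higher by as much (10%). The 8 genes not matched to a promoter had a median of -0.44. With libraries rescaled to the same FPKM sum, with or without Mir762, the medians were -0.64 with a word and 0.24 without, and 13 of 15 were below 0. The median of all genes was 0.23 with either rescaling. Over the other settings tried, including shorter words and a shorter window, the median ranged from -0.96 to -0.55 with a word and from -0.08 to 0.16 without. Among all other genes with a word, 374 compared, the median was -0.07 and 53.7% were below 0, and among 7732 without, 0.06 and 47.3%. In GV oocytes the medians of the genotype difference were 0.00 with a word and -0.06 without.

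**Figure D5:**
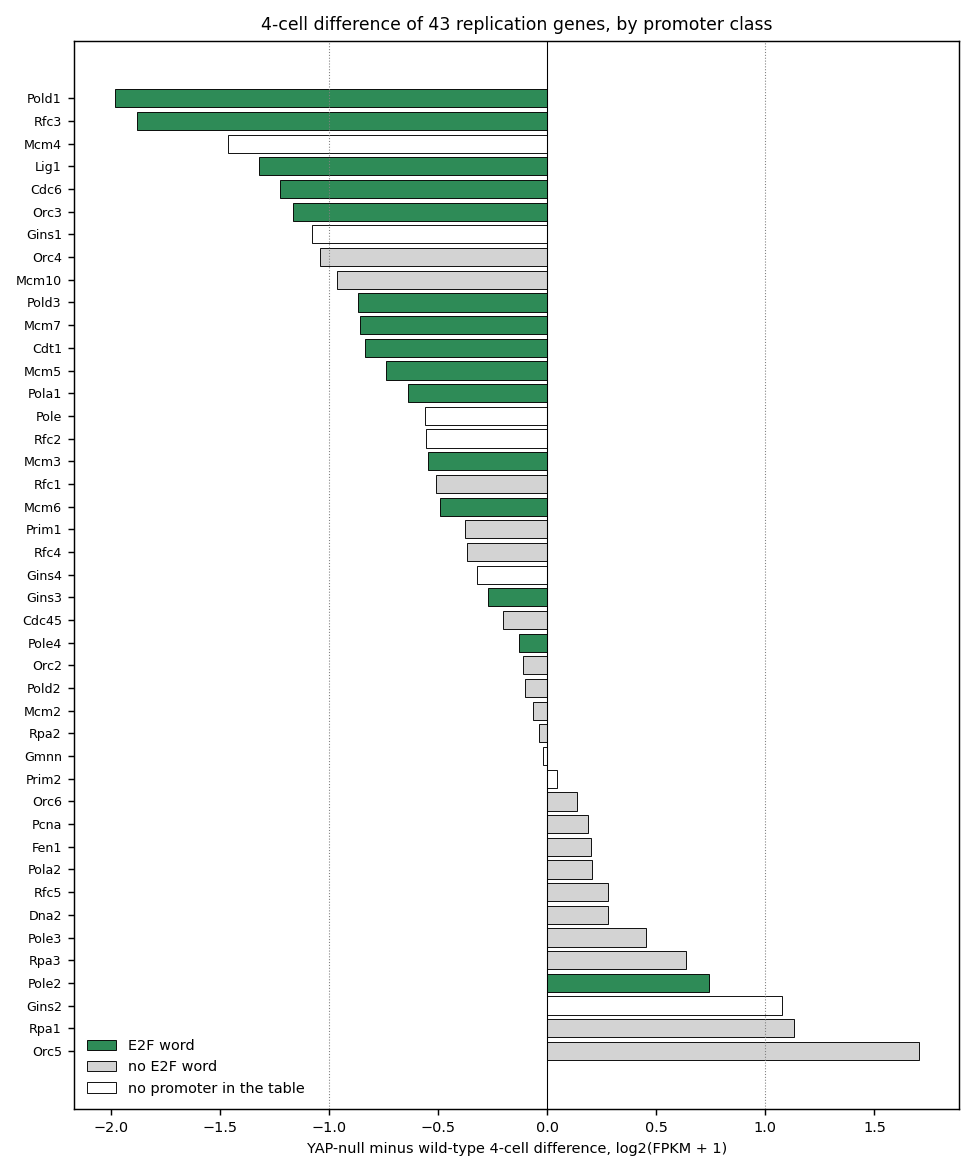
YAP-null minus wild-type difference at the 4-cell stage on the log2(FPKM + 1) scale for 43 replication genes, 1 library per genotype; bar colour gives the promoter class and dotted lines mark 2-fold. Of the 15 genes with an E2F word 14 lie left of 0, with Pole2 the exception, and the 3 bars past the right dotted line are Gins2, Rpa1 and Orc5.

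A further list of 26 replication genes (initiation kinases, fork protection, chromatin assembly and topoisomerase genes) was read from the same fits. At the 4-cell stage 5 of these 26 were higher and 2 lower by limma, so 26.9% passed, where 56.0% of all genes did. The largest differences were those of Chtf8, a subunit of an alternative clamp loader, and Top2a, the topoisomerase that untangles sister DNA. Chtf8 was at 57.6 FPKM in YAP-null embryos and 49.9 FPKM in wild-type embryos, against 1.42 and 1.95 FPKM in YAP-null oocytes and 1.19 and 2.38 FPKM in wild-type oocytes, a difference of 4.34 ± 0.34 (limma, adjusted p = 0.000283). Top2a was at 58.9 FPKM in YAP-null embryos and 91.0 FPKM in wild-type embryos, against 7.001 and 15.5 FPKM in YAP-null oocytes and 5.62 and 17.8 FPKM in wild-type oocytes, a difference of 2.71 ± 0.55 (limma, adjusted p = 0.00666). Both were far higher in each embryo library than in any oocyte library. In GV oocytes 0 of the 26 passed by limma between genotypes, with 0 at an unadjusted p of 0.05. At the 4-cell stage the YAP-null library had 1 of the 26 higher by 2-fold or more and 2 lower by as much, where 17.7% of all genes were higher and 9.97% lower.

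The E2F and pocket protein genes, which encode the factors that read E2F words and their inhibitors, were 13, of which 12 could be tested between stages. By limma 1 was higher and 2 lower at the 4-cell stage, where 28.2% of all genes were higher and 27.8% lower. E2f7, an atypical repressor, was at 5.75 FPKM in YAP-null embryos and 2.50 FPKM in wild-type embryos, against 0 and 0.242 FPKM in YAP-null oocytes and 0.0969 and 0.207 FPKM in wild-type oocytes, a difference of 2.10 ± 0.30 (limma, adjusted p = 0.00181). E2f5, a repressor-type member that partners pocket proteins, was at 143 FPKM in YAP-null embryos and 26.3 FPKM in wild-type embryos, against 289 and 292 FPKM in YAP-null oocytes and 291 and 295 FPKM in wild-type oocytes, a difference of -2.22 ± 0.58 (limma, adjusted p = 0.0183). The 4 GV libraries were nearly equal for E2f5, and the embryo libraries differed 5.44-fold. Between the 4-cell libraries 5 of 12 were at least 2-fold higher in YAP-null embryos (E2f1, E2f2, E2f4, E2f5 and Rb1) and 1 at least 2-fold lower (E2f6), where 17.7% of all genes were higher and 9.97% lower. E2f4, which was named after its values were seen, was at 144 FPKM in YAP-null embryos and 43.7 FPKM in wild-type embryos. The activator E2f1, chosen likewise, was at 208 FPKM in YAP-null embryos and 91.8 FPKM in wild-type embryos. With 1 library per genotype these differences were not tested.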

How the data were processed

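Processed tables of 6 mouse libraries were used. Per the labels' protocols, 60 oocytes or embryos were lysed, mRNA was purified, and cDNA libraries were sequenced in pairs on an Illumina HiSeq. The submitters' processing notes name CASAVA 1.8, TopHat and the build mm9. The tool that quantified genes, its annotation and the strandedness are not given. Per the file headers, the tables deposited by the authors hold FPKM per gene with a lower and an upper bound of unstated level. Some values lie outside their own bounds. FPKM is relative to a library's total, and Mir762 took 19.1% of the sum of YAP-null GV library 1.

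Each table had 23813 lines. A line of failed status (1 line) was dropped, and 260 symbols at several loci were summed. Values were compared as log2(FPKM + 1), for genes that averaged 1 FPKM or more in the libraries of a comparison. Differences were fitted with limma 3.58.1 (limma-trend, R 4.3.3, two-sided, Benjamini-Hochberg over all genes tested). The GV fit used 4 libraries without a replicate block and the stage fit all 6 with genotype as a term. The scripts were tested on simulated data. Nothing says that libraries came from separate animals, so p-values measure the spread between these libraries only. At the 4-cell stage, and within a genotype, 2-fold differences were counted without a test. Relative depth was estimated from the deposited bounds of 1882 genes. Coordinates of genes are mm9, counted from 1. Promoters are RefSeq GRCm38.p6.

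The members and lists were chosen with earlier results of these data known. Named were, per functional group, the gene of highest mean FPKM and of largest stage difference, all genes 2-fold apart between 4-cell libraries, and those whose GV genotypes did not overlap. Others were named after their values were seen. Alternatives were other pseudocounts, filters, scalings, loci, terms and omitted libraries.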

Additional observations from a re-analysis of the deposited data

Results flagged for a closer look

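Gmnn, the geminin gene, had opposite directions of the genotype difference at the 2 stages. YAP-null minus wild type was 0.17 in GV oocytes, where both YAP-null libraries exceeded both wild-type libraries but by 0.33 in number 1 and 0.01 in number 2, and -0.0204 at the 4-cell stage, where the YAP-null library was lower. The GV difference did not pass (SE 0.33; limma, unadjusted p = 0.63) and ran from 0.02 to 0.32 without 1 library. The difference between the stages was not tested. The 4-cell value is near 0 and turned positive, to 0.18, with libraries rescaled to the same FPKM sum.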

How the results depend on the processing

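No difference that passed a test changed direction under any alternative tried. In GV oocytes 0 of 44 replication genes passed under every alternative, and over all genes the 0 calls became 2 with the replicate number as a block and 2 to 7 without 1 library. The libraries with the same number deviated together (r = 0.849 over 10462 genes), but 2 pairs do not show that the numbers pair them, and the block changed no call of a replication gene. Without 1 library, the calls between stages over all genes ran from 2965 to 6332, the genes higher at the 4-cell stage from 1 to 4 and those lower from 3 to 9. Between 4-cell libraries, 4 genes were at least 2-fold lower with a pseudocount of 5 FPKM, and 1 higher with that pseudocount and 1 with quantile normalization. These counts are not set against shares of all genes at the same settings. The cause was not tested. Where omitting a library left 1 in a group, that library was assumed to vary like the others. With 1 mean per group, Cdc45 (limma, adjusted p = 0.0782) and Rfc2 (0.0657) no longer passed and Mcm4 (0.0317) did. With the GV libraries numbered 2 alone the stage differences of Orc6, Cdc6, Mcm6 and Dna2 were 1.75, 1.27, 1.26 and 1.09. With all GV libraries they were 1.01, 1.07, 0.88 and 0.84. Those of Mcm4 and Lig1 were -1.30 and -1.58 with number 2 alone and -1.13 and -1.15 with all. With number 1 alone Orc4, Gins1, Pold2, Rpa3 and Rfc1 stood at -1.81, -1.44, -1.90, -1.37 and 3.41. With all GV libraries these 5 stood at -1.30, -0.86, -1.21, -0.95 and 1.92. Rescaling to the same FPKM sum moved the median of all genes in GV oocytes from -0.00 to -0.13 and, without Mir762, to -0.00, and between stages from -0.10 to -0.25 without Mir762. Small differences of Orc2, Gmnn, Mcm2, Pold2, Pole4, Rpa2 and Prim2 between 4-cell libraries, and of Pola1, Prim1, Mcm2 and Cdt1 between stages, changed sign with a scaling. Genotype at the 4-cell stage cannot be told apart from the library, and shallow GV libraries limit low genes.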
